A study of Mus musculus with 14 samples.

Results

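MLL-AF9 cells were compared with wild-type (WT) hematopoietic stem and progenitor cells (HSPCs) in 10 of the 14 samples of the series, 6 MLL-AF9 cultures and 4 WT HSPC samples, by sequencing of RNA freed of ribosomal RNA. Of the 52550 genes in the count table, 17077 had at least 10 counts in at least 4 of these 10 samples, and these were tested. The WT HSPCs came from the femurs and tibiae of C57BL/6 mice aged 8 to 20 weeks, were enriched for progenitors with a BD antibody set and went directly into TRIzol. The MLL-AF9 cells began as HSPCs of WT genotype from the same strain. They were kept overnight in medium containing SCF, GM-CSF and the interleukins IL-3 and IL-6. They then received the fusion gene from the retrovirus pMSCV-MLL-AF9-neo (replicates 1 to 3) or pMSCV-MLL-AF9-puro (replicates 4 to 6). The cells were selected with the matching drug and replated in MethoCult at least 2 times before RNA was taken. After the replatings, the methods of the study describe further expansion in medium with the same cytokines. Cultured HSPCs without the fusion were not part of the comparison, so the fusion cannot be told apart from culture, transduction and drug selection. The labels do not say whether replicates came from separate mice or separate transductions, and p-values therefore measure the spread between these samples, which may be technical.

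MLL, the product of Kmt2a, is a histone methyltransferase that keeps HOXA genes active in stem cells and is normally released from them as the cells mature. In MLL-AF9 the DNA-binding front part of MLL is joined to the end of AF9 (gene Mllt3), a protein that recruits transcription elongation factors and the histone methyltransferase DOT1L. The fusion is a driver of acute myeloid leukemia, often with monocytic features, and in mouse marrow it immortalises progenitors that keep dividing in culture.

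The WT libraries held the markers that define progenitors, such as Kit at 190 to 262 CPM and Cd34 at 35.5 to 49.1 CPM, beside RNA of mature marrow cells. The fusion transcript had no row of its own in the table. Total counts per library ran from 35629341 to 45877994, and 3 counts, taken here as the floor of detection, corresponded to 0.0594 to 0.122 CPM. CPM denotes counts relative to library size after scaling by TMM factors, and fold changes are log2 differences of MLL-AF9 minus WT HSPCs with their standard error (SE). A single noncoding gene, Gm26917, took 16.99 and 17.78% of all counts in WT replicates 1 and 2, 35.44 and 33.57% in WT replicates 3 and 4, and 7.55 to 10.41% in the MLL-AF9 cultures. WT replicates 3 and 4 stood apart from replicates 1 and 2 in a way that followed base composition. Over genes the fold change ran with transcript GC content (Spearman rho -0.393, or -0.0419 after a GC correction, a description across genes with no test). The correction was fitted to each sample without regard to group, so the drop of rho was built in. It removes any group difference that runs with GC content, technical or biological. Several results are therefore also given with total counts only, against either pair of WT libraries or with the GC correction, and the plot of list medians under 5 settings shows all 37 lists. For many lists whose counts of calls moved with the settings, some counts under the alternative fits stand beside the main ones. Counts given alone are of the main fit and may have moved as well. Scaling by total counts alone moved the fold changes by a median of 0.57, so small differences have a direction only relative to the scaling.

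Most of the transcriptome differed. In bulk RNA fewer cells of a type and less RNA per cell cannot be told apart, which holds for every gene named here. Of the genes tested, 62.2% were called at an adjusted p under 0.05, 32.8% higher and 29.4% lower in MLL-AF9 cells. These shares are the background for list counts of the main fit, and each alternative fit has its own. Of the 17077 genes, 3795 were called higher and 3670 lower against WT replicates 1 and 2. The counts were 5879 and 5312 against WT replicates 3 and 4, 5350 and 4641 after GC correction, and 6747 and 3128 with total counts only. The groups did not overlap in CPM for 50.7% of genes, 25.8% higher and 24.9% lower in MLL-AF9 cells. By 5 or more on the log2 scale, 466 genes were called higher and 557 lower. Against WT replicates 1 and 2 alone, against WT replicates 3 and 4 alone and after GC correction, 6061 genes were called in the same direction each time, 3073 of them higher. With each vector's cultures taken alone as well, 5891 remained.

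The HOXA genes rose together. HOXA genes encode homeobox transcription factors that are on in early progenitors and whose persistence holds leukemic cells in an immature state. All 7 HOXA genes that could be tested were called higher, with a median fold change of 5.09, and in each the groups did not overlap. Hoxa9, the member most tied to MLL leukemia, measured 4.5, 6.69, 3.17 and 4.12 CPM in WT replicates 1 to 4 (the order used throughout) and 131 to 176 CPM (median 150) in the MLL-AF9 cultures, a fold change of 5.06 (SE 0.31, adjusted p = 5.04e-07). Hoxa7 went from 4.43, 5.01, 4.28 and 4.73 CPM to between 20.1 and 47.5 CPM. Hoxa10 went from 0.603, 1.09, 1.07 and 0.653 CPM to between 56.3 and 132 CPM, a fold change of 6.72. Hoxa7 was close to constant among WT libraries, Hoxa9 and Hoxa10 varied more, and for each of the 3 genes every MLL-AF9 culture sat well above every WT library. Further towards the 5' end of the cluster, Hoxa11 was at 0 counts in all 4 WT libraries and at 8.38 to 52 CPM in MLL-AF9 cells, at least 224-fold higher against the floor of 3 counts per library. Hoxa13 was also at 0 in WT HSPCs and spread from 0.126 to 5.51 CPM among the cultures. At the other end, Hoxa2 was called higher at low levels, with at most 2.76 CPM in the cultures. Hoxa3, Hoxa4, Hoxa5 and Hoxa6 were listed at 0 in all 10 libraries, as were genes used by all cells such as Rpl13 and Hif1a, and were read as not measured.

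**Figure D1:**
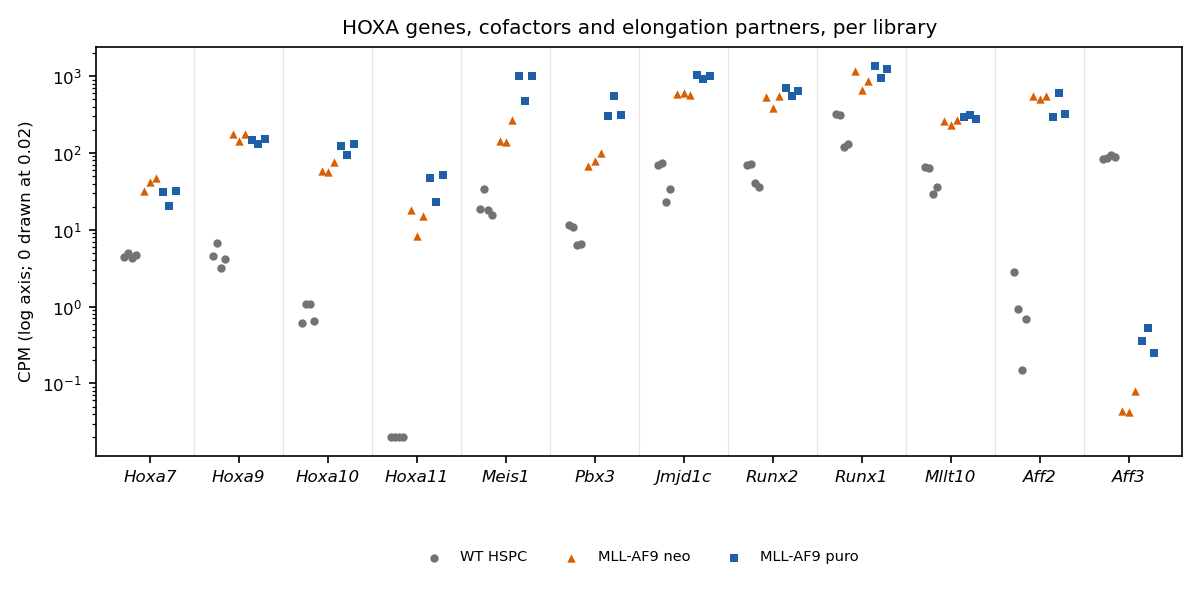
CPM per library on a log axis for 12 genes of the HOXA cluster, its cofactors and the MLL elongation partners, with WT HSPCs as grey circles, neo cultures as orange triangles and puro cultures as blue squares (zeros are drawn at 0.02). The MLL-AF9 cultures lie above every WT library for Hoxa7, Hoxa9, Hoxa10, Hoxa11, Meis1, Pbx3, Jmjd1c, Runx2, Runx1, Mllt10 and Aff2, and below them for Aff3.

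The partners and targets of the fusion followed in part. Of 16 genes listed as HOX cofactors or fusion targets, 10 were called higher and 2 lower, with a median of 2.33 that shrank to 1.38 after GC correction. With the neo cultures alone the HOX cofactors and other fusion targets gave 7 higher and 4 lower with a median of 0.97, and with the puro cultures alone 11 and 2 with a median of 2.84. Against WT replicates 1 and 2 there were 7 higher and 2 lower, with the replicate block 8 and 4, and without MLL-AF9 replicate 5 10 and 4. The replicate block matches samples by replicate number, so MLL-AF9 replicates 5 and 6, with no WT partner, do not inform its fold changes. Meis1, the homeobox partner that HOXA9 needs for leukemia, measured 18.6, 33.9, 18.3 and 15.5 CPM in WT HSPCs and 137 to 1016 CPM (median 367) in MLL-AF9 cells, a fold change of 4.55 (SE 0.71, adjusted p = 2.37e-04). Pbx3, the third member of the HOXA9 complex, went from 11.7, 11, 6.27 and 6.45 CPM to between 68.2 and 556 CPM, and its level in puro cultures exceeded that in neo cultures. Both partners exceeded WT levels in every culture while varying several-fold between cultures. Jmjd1c, a jumonji-domain coactivator, went from 68.7, 74.7, 22.8 and 33.5 CPM to between 573 and 1048 CPM. Runx2 rose by 3.36, Cpeb2, a regulator of mRNA translation, by 3.50, and the helix-loop-helix factor Tcf4 by 2.71, or by 1.30 after GC correction. Myb, which leukemic cells depend on, did not pass the test, with 77.1 to 245 CPM in WT HSPCs and 90.7 to 222 CPM in MLL-AF9 cells. Zfp521, a zinc-finger protein of early progenitors, went the other way, with 4.91 to 9.32 CPM in WT HSPCs and at most 0.554 CPM in MLL-AF9 cells. Eya1, a cofactor of homeobox proteins, was at 0.435 to 4.21 CPM in the 3 neo cultures and 263 to 456 CPM in the 3 puro cultures, and with the neo cultures alone its fold change was 0.37 and not called.

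Among the genes of the MLL complex and its elongation partners the changes went both ways. Of 25 tested, 9 were called higher (36%) and 7 lower (28%), near the shares over all genes tested. The list's median of 0.71 turned to -0.22 after GC correction. The alternative fits gave 7 to 12 higher and 4 to 7 lower. The opposite behaviour of AF4-family members, scaffolds of the super elongation complex, stood out. Aff2 measured 2.85, 0.937, 0.148 and 0.694 CPM in WT HSPCs and 296 to 605 CPM in MLL-AF9 cells (fold change 8.64, SE 0.79). Aff3 measured 82.2, 86.2, 93.9 and 87.6 CPM in WT HSPCs and at most 0.526 CPM in MLL-AF9 cells (fold change -8.64, SE 0.65). The groups were thus separated by more than 2 orders of magnitude in both genes, in opposite directions. The widely used members Aff1 and Aff4 rose by 1.38 and 2.17. Mllt10, which binds DOT1L, went from 65.6, 64.2, 28.9 and 36 CPM to between 232 and 315 CPM. Mllt1, the close relative of AF9, fell by 1.90, and it did so in comparison with either pair of WT libraries (-1.29 and -2.44). Cdk9, the kinase of the elongation factor P-TEFb, fell by 1.14, and its cyclin partner Ccnt2 rose by 2.32.

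Polycomb genes oppose MLL by silencing HOX loci. Of 12 genes of Polycomb repressive complex (PRC) 2, 4 were called higher and 3 lower (median 0.06), and of 19 PRC1 genes 5 higher and 5 lower (median -0.08), and both shares called were near the background. Of the 3 lower calls in PRC2 core and accessory genes, 1 was left without MLL-AF9 replicate 4 or 6 or WT replicate 3 or 4, and 0 with total counts only. Against WT replicates 3 and 4 the PRC1 genes gave 8 higher and 6 lower. The PRC2 accessory subunit Mtf2 went from 22.3, 29.4, 6.68 and 9.14 CPM to between 85.2 and 126 CPM, a fold change of 2.5 that was 0.77 after GC correction. Within PRC1, relatives parted. Phc1 and Phc2, which link complexes together, fell by 2.54 and 1.75 while their relative Phc3 rose by 1.75, and the chromodomain subunit Cbx8 fell by 2.25. Pcgf5, Rybp and Yaf2, subunits of variant complexes, rose by 2.79, 2.22 and 2.42. Pcgf5 measured 33.1, 41.2, 12 and 13.8 CPM in WT HSPCs and 145 to 201 CPM in MLL-AF9 cells, with no overlap.

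Stem cell transcription factors went in both directions. Of 14 tested, 4 were called higher (28.6%, against 32.8% of all genes) and 6 lower (42.9%, against 29.4%). Runx1, a factor of blood formation, measured 321, 312, 120 and 131 CPM in WT HSPCs and 669 to 1373 CPM in MLL-AF9 cells (fold change 2.24, SE 0.38). Fli1 and Etv6, of the ETS family, rose by 2.04 and 1.44. Other factors of stem cells were low or nearly gone. Tal1 measured 161, 165, 209 and 239 CPM in WT HSPCs and at most 0.589 CPM in MLL-AF9 cells (fold change -9.70, SE 0.72, adjusted p = 1.84e-06). Gfi1b, which drives erythroid and megakaryocyte fates, went from 81.6, 92.9, 216 and 251 CPM to at most 0.584 CPM. Hlf, a marker of long-term stem cells, went from 13.9, 21.6, 4.5 and 5.55 CPM to between 0.673 and 3.67 CPM, and Nfe2 fell by 1.43. Erg varied from 16.4 to 232 CPM among the cultures and did not pass the test.

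Surface proteins of stem and progenitor cells were largely lower. Of 17 stem and progenitor surface genes tested, 9 were called lower and 1 higher, with a median of -1.64. The median was -4.68 with the neo cultures alone, -4.04 with the replicate block, -2.68 after GC correction, -2.35 against WT replicates 1 and 2 and -1.24 with total counts only, and the lower calls numbered 9 to 12. Without MLL-AF9 replicate 2, 3 or 5 there were 2 higher calls. Cd34 measured 35.5, 47.6, 49.1 and 43.8 CPM in WT HSPCs and 0.0435 to 1.75 CPM in MLL-AF9 cells. Flt3, the receptor of lymphoid-primed progenitors, went from 53.2, 63.7, 74.2 and 44.3 CPM to at most 5.91 CPM. Slamf1, of the SLAM family that marks stem cells, measured 1.93 to 6.41 CPM in WT HSPCs and at most 0.155 CPM in MLL-AF9 cells. Each of these 3 was thus present in all WT libraries and at or near the floor in at least 1 culture. Cd47, the signal that protects cells from macrophages, was the member called higher in the main comparison (466, 471, 155 and 190 against 1010 to 1097 CPM), with a fold change of 1.70 that was 0.59 after GC correction.

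Myeloid transcription factors showed no common direction. Of 22 tested, 3 were called higher and 7 lower, and the median of -0.05 became 0.58 after GC correction and under total-count scaling alike. The calls turned with it, to 10 higher and 5 lower after GC correction and to 9 higher and 3 lower with total counts only. Spi1, the master factor of granulocytes and monocytes, did not pass the test (252, 172, 357 and 311 CPM in WT HSPCs, 170 to 276 CPM in MLL-AF9 cells). Gfi1, a repressor that steers progenitors to granulocytes, went from 35.6, 34.6, 46.9 and 45.4 CPM to between 117 and 289 CPM. Zeb2 went from 120, 130, 42.1 and 53.4 CPM to between 377 and 930 CPM. Factors of monocyte differentiation and activation were among the calls in the other direction. Klf4 measured 90.4, 84.6, 60.8 and 47.9 CPM in WT HSPCs and 1.13 to 2.47 CPM in MLL-AF9 cells (fold change -5.16, SE 0.31, adjusted p = 3.78e-07), and Irf5 fell by 3.43.

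No receptor chain tested for the cytokines in which the cells were cultured and expanded was called higher. Il3ra, the IL-3 receptor alpha chain, went from 27.3, 25.4, 75.9 and 64.7 CPM to between 6.13 and 17.2 CPM, and Kit, the SCF receptor, fell by 1.56. Il6ra measured 198, 150, 113 and 92 CPM in WT HSPCs and 8.49 to 77.6 CPM in MLL-AF9 cells. The chain shared by the IL-3 and GM-CSF receptors, Csf2rb, had a fold change of 0.56 and did not pass the test (270, 218, 326 and 276 against 263 to 603 CPM). The GM-CSF receptor alpha chain Csf2ra, with a fold change of 0.27, did not pass it either. Over 20 growth factor receptors 3 were called higher and 10 lower, or 5 and 11 after GC correction. The erythropoietin receptor Epor and the IL-33 receptor Il1rl1 were almost absent from the cultures, with at most 0.957 and 0.563 CPM. The receptors called higher included Tgfbr1, for TGF-beta (12.2, 16.2, 2.55 and 4.12 CPM against 42.6 to 146 CPM), and Insr, for insulin, which rose by 1.85.

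Granule genes record how far neutrophils have matured. Of 12 primary granule genes, made at the promyelocyte stage, 2 were called higher and 5 lower, and their median of -0.52 became 0.05 under total-count scaling. After GC correction 1 was higher and 7 were lower. Mpo, the myeloperoxidase of early granules, measured 3043, 3068, 8533 and 7738 CPM in WT HSPCs and 134 to 666 CPM in MLL-AF9 cells (fold change -4.05, SE 0.54). Prtn3, a granule protease, went from 680, 674, 1714 and 1626 CPM to between 141 and 521 CPM, and Nkg7 from 66.3, 68.2, 114 and 136 CPM to between 1.88 and 12.4 CPM. Ctsg spread from 183 to 1181 CPM among the cultures, around the WT range of 404 to 883 CPM, and did not pass the test. Of 20 genes of late granules none was called higher and 4 were called lower, and for 16 no call was made (median -1.08). These late neutrophil granule calls hung on single libraries, with 8 lower without WT replicate 2, 1 higher and 3 lower without WT replicate 1 (median -0.32), and 1 higher and 5 lower without MLL-AF9 replicate 4 or 6. DESeq2 called 6 lower and 1 higher. Late granule genes already varied widely between WT libraries. Retnlg, for example, measured 240, 7.57, 61 and 95.7 CPM there, and at most 0.107 CPM in MLL-AF9 cells. Fcnb, a ficolin of neutrophil granules, measured 29.2 to 140 CPM in WT HSPCs and 0.8 to 8.25 CPM in MLL-AF9 cells. Olfm4 was the most variable, with 0.886 to 32 CPM in WT HSPCs and 0.199 to 518 CPM among the cultures, and did not pass the test.

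The stefin A genes, a mouse-expanded family of small intracellular inhibitors of cathepsin proteases found in myeloid cells, rose as a block. All 9 members on chromosome 16 were called higher with no overlap of the groups, with a median fold change of 8.43 (7.03 after GC correction, 7.72 against WT replicates 1 and 2 and 11.38 against WT replicates 3 and 4), and their summed level went from between 0.517 and 7.29 CPM to between 92.5 and 1724 CPM. Stfa1 measured 0.302, 0, 0 and 0.0408 CPM in WT HSPCs and 18.6 to 280 CPM (median 145) in MLL-AF9 cells. Stfa2 measured 0.186, 0, 0 and 0.0408 CPM in WT HSPCs and 7.6 to 321 CPM (median 200) in MLL-AF9 cells. Stfa3 measured 0.511, 0, 0 and 0.204 CPM in WT HSPCs and 1.81 to 90 CPM in MLL-AF9 cells. WT HSPCs therefore had almost no stefin RNA, and replicate 5 had the least of all cultures in each of these 3 genes. The members are near-copies, and reads may have been shared between them, so the level of a single gene is less certain than that of the cluster. The likeness extends to their promoters. The 250 bases before the annotated start of Stfa1 (chr16:36276898-36277147, + strand), Stfa2 (chr16:36408364-36408613, - strand) and Stfa3 (chr16:36455393-36455642, - strand), from RefSeq on GRCm38.p6, are shown because these genes rose together, with the longest run shared by all 3 in capitals.
Stfa1: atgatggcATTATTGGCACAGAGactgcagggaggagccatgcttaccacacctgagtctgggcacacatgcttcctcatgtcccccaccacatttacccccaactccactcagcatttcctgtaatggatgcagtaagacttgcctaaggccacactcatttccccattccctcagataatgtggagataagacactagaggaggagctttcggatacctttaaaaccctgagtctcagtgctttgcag
Stfa2: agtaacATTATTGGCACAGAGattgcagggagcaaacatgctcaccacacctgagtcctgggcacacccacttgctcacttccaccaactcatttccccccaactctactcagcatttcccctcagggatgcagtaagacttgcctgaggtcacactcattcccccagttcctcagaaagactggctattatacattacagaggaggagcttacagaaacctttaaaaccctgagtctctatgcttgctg
Stfa3: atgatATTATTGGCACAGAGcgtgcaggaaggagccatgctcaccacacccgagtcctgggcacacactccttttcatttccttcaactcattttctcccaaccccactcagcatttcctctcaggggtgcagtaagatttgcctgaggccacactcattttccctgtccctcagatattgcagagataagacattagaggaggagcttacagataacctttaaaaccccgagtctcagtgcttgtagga
The shared run of 15 bases began 242 to 245 bases before the start in each. In a global alignment the windows of Stfa1 and Stfa2 were 81% identical, those of Stfa1 and Stfa3 83.5% and those of Stfa2 and Stfa3 80.2%. The windows of 5 members were in the RefSeq table, and Csta1, the member with the least RNA in the cultures (at most 0.48 CPM), had the least similar window of the 5 (45.8 to 50.7% identity with the others).

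Monocyte and macrophage genes were more often lower than higher. Of 28 tested, 14 were called lower and 4 higher, and against WT replicates 1 and 2 these counts were 11 and 2. Lyz2, the lysozyme of mature phagocytes, went from 3105, 1307, 795 and 1078 CPM to between 49.7 and 403 CPM. Resident macrophage genes were close to absent in the cultures. C1qa, of the complement system, measured 20.7, 14.3, 33.9 and 51.2 CPM in WT HSPCs and at most 0.31 CPM in MLL-AF9 cells, and the scavenger receptor Cd163 measured at most 0.8 CPM. Axl, a receptor for dying cells, went from 58.9, 38.3, 54.9 and 67.9 CPM to between 0.356 and 2.08 CPM. In the other direction, Gpnmb, a lysosomal membrane protein, went from 3.06, 5.98, 1.81 and 0.98 CPM to between 37.3 and 284 CPM, and the secreted phosphoprotein Spp1 rose by 3.37. Genes for presenting antigen were lower, with 14 of 19 dendritic and MHC class II genes called lower and 2 higher. Against WT replicates 1 and 2, 11 of these were called lower and 1 higher. Cd74, the invariant chain, measured 187, 110, 223 and 243 CPM in WT HSPCs and 1.33 to 5.52 CPM in MLL-AF9 cells, and Ciita, the master regulator of class II, measured at most 0.155 CPM.

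Genes of the other blood lineages and of the marrow stroma were mostly lower in the cultures. Erythroid genes fell most, with 25 of 28 called lower, none higher, and a median fold change of -7.46. Hbb-bs, an adult beta globin, measured 265, 118, 136 and 227 CPM in WT HSPCs and had no count in any MLL-AF9 culture, at least 2807-fold lower against the floor of 3 counts per library. Car1, the carbonic anhydrase of red cells, measured 425, 511, 264 and 361 CPM in WT HSPCs and also had no count in the cultures. Slc4a1, the anion exchanger of the red cell membrane, measured 156 to 391 CPM in WT HSPCs and at most 0.109 CPM in MLL-AF9 cells. Regulators of the erythroid lineage were lower as well. Gata1 went from 87.9, 83.3, 200 and 241 CPM to at most 0.87 CPM, and Klf1 from 145, 122, 313 and 383 CPM to at most 1.9 CPM. The heme enzyme Urod, used to a lesser degree by all cells, fell by 3.24 and kept 12.2 to 20.4 CPM.

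GATA1 binds the letters AGATAA or TGATAA. Of the 28 erythroid genes 19 had a window in the RefSeq table, and 11 of their 22 windows (50%) held either word on either strand in the 250 bases before the start, compared with 10.5% of the windows of all genes tested and 16.6% of all windows. Genes called lower by 5 or more held it in 20.5% of windows and genes called higher by 5 or more in 15%. Of the 5 stefin A windows, whose genes rose, 2 (40%) held it as well. The windows of Klf1 (chr8:84901732-84901981, + strand), Epor (chr9:21963577-21963826, - strand) and Ermap (chr4:119189996-119190245, - strand), an erythroid membrane protein, are shown as examples with the word or its reverse complement in capitals. A match is a description of the sequence and not a binding site.
Klf1: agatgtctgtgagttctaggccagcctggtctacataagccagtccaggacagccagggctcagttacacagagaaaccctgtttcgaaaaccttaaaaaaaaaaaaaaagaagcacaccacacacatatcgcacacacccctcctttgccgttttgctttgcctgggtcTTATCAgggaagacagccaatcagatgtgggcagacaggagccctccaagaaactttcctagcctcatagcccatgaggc
Epor: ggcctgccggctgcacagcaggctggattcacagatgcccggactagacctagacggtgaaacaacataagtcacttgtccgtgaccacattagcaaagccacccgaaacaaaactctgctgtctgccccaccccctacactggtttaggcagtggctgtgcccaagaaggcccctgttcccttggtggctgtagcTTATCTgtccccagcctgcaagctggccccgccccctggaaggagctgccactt
Ermap: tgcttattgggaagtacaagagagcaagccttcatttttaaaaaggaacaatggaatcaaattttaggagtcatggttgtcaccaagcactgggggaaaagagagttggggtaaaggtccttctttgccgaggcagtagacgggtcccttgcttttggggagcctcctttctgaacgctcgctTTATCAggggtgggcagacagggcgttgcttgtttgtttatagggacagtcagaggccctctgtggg
All 3 genes fell, with fold changes of -7.53 for Klf1, -7.39 for Epor and -10.12 for Ermap. CpG counts in the same windows were lower for genes with large changes in either direction, given as a description with no test. Windows of genes tested held a median of 14 CpG, those of genes called higher by 5 or more held 6, and those of genes called lower by 5 or more held 5, while genes not called held 14. The stefin A windows held a median of 1, erythroid windows 4.5 and ribosomal protein windows 18.

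Of 20 megakaryocyte genes 14 were called lower and 2 higher. Itga2b, the platelet fibrinogen receptor chain, measured 65, 195, 334 and 265 CPM in WT HSPCs and 2.31 to 11.9 CPM in MLL-AF9 cells, and Pf4, a platelet chemokine, fell by 4.79. Vwf, the clotting adhesion protein, went from 58.1, 165, 252 and 217 CPM to between 4.85 and 26.9 CPM. WT replicate 1 was the lowest WT library in all 3. Thbs1 (thrombospondin) was an exception, going from 281, 252, 108 and 94.3 CPM to between 736 and 4236 CPM, so that the list's summed CPM was not lower in the cultures. Mast cell, basophil and eosinophil genes were lower in 16 of 17. Mcpt8, a basophil protease, went from 156, 337, 336 and 328 CPM to between 2.76 and 14.6 CPM. Fcer1a, the IgE receptor alpha chain, measured 5.43 to 34.9 CPM in WT HSPCs and at most 0.0626 CPM in MLL-AF9 cells, and the eosinophil peroxidase Epx fell by 6.26.

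Lymphoid RNA was low in the cultures. Of 20 B lymphoid genes 15 were called lower and 2 higher, and of 27 T and NK genes 23 lower and 1 higher. Dntt, the terminal transferase of early lymphoid progenitors, measured 26.8, 27.6, 25.7 and 27 CPM in WT HSPCs and at most 0.0653 CPM in MLL-AF9 cells. Ebf1, the factor that commits cells to the B lineage, measured at most 0.119 CPM, and Il2rb, of T and NK cells, went from 43, 51.2, 100 and 64.9 CPM to at most 0.221 CPM. Plasma cell genes were lower in 14 of 18. Igha, the IgA heavy chain, was the most abundant of these in WT HSPCs at 795, 1314, 5520 and 1558 CPM and had no count in any culture, and Jchain measured 74.4 to 351 CPM in WT HSPCs and at most 0.0834 CPM in MLL-AF9 cells. The genes called higher were Bank1, a B cell adaptor that rose by 3.96, the complement receptor Cr2 (by 2.54), the costimulatory receptor Cd28 (by 2.95) and Xbp1, a factor of the secretory pathway (by 0.75, a call lost without WT replicate 2 at 0.64). Without WT replicate 3 a second plasma cell gene was called higher. Stromal and endothelial genes were lower in 18 of 22 and higher in none. Col1a1, a collagen of fibroblasts and bone, measured 149, 259, 423 and 1701 CPM in WT HSPCs, with replicate 4 far above the others, and at most 0.155 CPM in MLL-AF9 cells. Cxcl12, the niche chemokine, measured 37.9 to 96.2 CPM in WT HSPCs and at most 0.0396 CPM in MLL-AF9 cells. Stromal, plasma and mature lymphoid RNA was thus part of what the WT HSPC libraries held, and its part in the other differences was not tested.

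**Figure D2:**
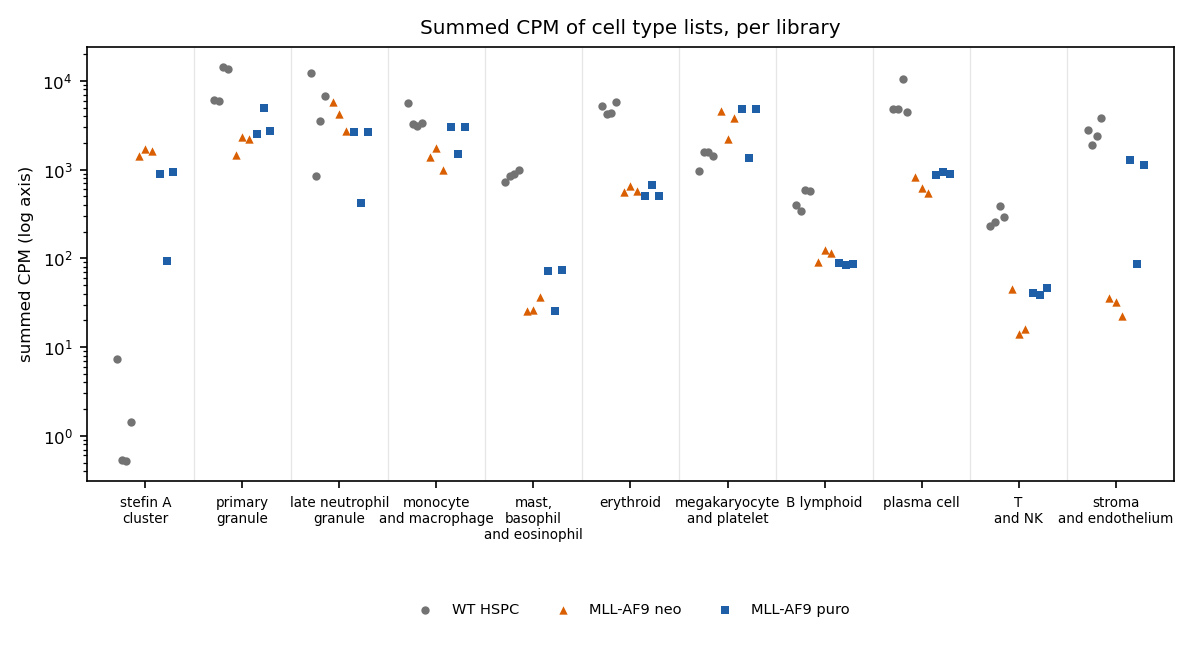
Summed CPM per library (log axis) of the tested genes of 11 cell type lists, with WT HSPCs in grey, neo cultures in orange and puro cultures in blue. Erythroid, mast, B, plasma and T and NK sums are lower in every MLL-AF9 culture than in every WT library, the stefin A sums are higher, and the stromal sum of replicates 4 and 6 stands above that of the other cultures, at up to 1271 CPM against at least 1910 CPM in WT HSPCs.

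Adhesion and homing genes leaned lower. Of 22 chemokine receptors and adhesion genes 10 were called lower and 2 higher. The higher calls were lost without MLL-AF9 replicate 4 or 6 or WT replicate 3 or 4, 1 was left without replicate 1 of either group, and there were 5 against WT replicates 3 and 4. Cxcr4, the receptor of CXCL12, measured 367, 361, 475 and 315 CPM in WT HSPCs and 64.8 to 98 CPM in MLL-AF9 cells (fold change -2.32, SE 0.23, adjusted p = 9.98e-06). Cdh1, E-cadherin, went from 41.8, 65.6, 50 and 37.7 CPM to between 2.71 and 9.85 CPM. The integrin chains Itgal and Itgb7 fell by 1.67 and 6.06, and the selectin ligand Selplg by 2.15.

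Cell cycle genes were more often lower than higher. Of 33 cell cycle and DNA replication genes tested, 18 were called lower and 3 higher, with a median of -1.23. Against WT replicates 1 and 2 there were 9 lower and 0 higher, and with total counts only 10 lower and 2 higher with a median of -0.69. Leaving out any 1 of MLL-AF9 replicates 1, 2, 3 and 5 or WT replicates 3 and 4 left 1 higher call, with 15 to 20 lower. The replicative helicase subunits moved together. Mcm2 measured 441, 374, 832 and 852 CPM in WT HSPCs and 35.6 to 180 CPM in MLL-AF9 cells, and Mcm5 and Mcm7 fell by 2.82 and 2.89. Top2a, the topoisomerase of dividing cells, did not pass the test and measured 90.7 to 666 CPM in WT HSPCs and 104 to 502 CPM in the cultures. The summed level of the list was 6650 to 8114 CPM in WT HSPCs and 1111 to 5475 CPM in MLL-AF9 cells, lowest in replicates 4 and 6. Among CDK inhibitors and cyclins 8 of 20 were called higher (40%, against 32.8% of all genes) and 7 lower (35%, against 29.4%). The median of 0.12 turned to -0.63 after GC correction. Against WT replicates 1 and 2 there were 4 higher and 5 lower. Cdkn1a (p21), an arrest gene and a p53 target, went from 16, 17.8, 28.2 and 22.3 CPM to between 79.5 and 309 CPM. Ccnd1, cyclin D1, went from 22, 24.3, 19.1 and 17.5 CPM to between 1.5 and 3.65 CPM, and Ccne1 and Cdk4 fell by 2.82 and 2.37. Rb1, the brake on S phase entry, went from 26.5, 24.6, 5.17 and 9.1 CPM to between 64.8 and 211 CPM. The MYC relatives Mycn and Mycl were at or near 0 in the cultures. Mycn measured at most 0.104 CPM against 5.87 to 12.2 CPM in WT HSPCs, and Mycl had no count in the cultures against 3.72 to 9.52 CPM. Of 22 MYC network genes 12 were called lower, among them Cad (by 2.99, pyrimidine synthesis) and Fbl (by 2.63, ribosomal RNA processing), and 2 higher, Mxi1 (by 2.16) and Mga (by 2.13), both of which oppose MYC. The lower calls of the MYC network numbered 8 after GC correction, 7 against WT replicates 1 and 2 and 6 with total counts only, and without WT replicate 2 there were 4 higher.

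Genes of protein synthesis and respiration moved as blocks. Of 73 cytosolic ribosomal protein genes 68 were called lower and none higher (median -1.55), and of 45 nuclear genes of oxidative phosphorylation 39 were called lower and 1 higher (median -1.28). Summed ribosomal protein RNA was 49090 to 106500 CPM in WT HSPCs and 20040 to 29930 CPM in MLL-AF9 cells, and the WT range itself followed the split between replicates 1 and 2 and replicates 3 and 4. The medians kept their sign under total counts, after GC correction and against either pair of WT libraries, and were smaller against WT replicates 1 and 2 alone (-0.93 for both lists) and with total counts only (-0.84 for ribosomal proteins, -0.60 for oxidative phosphorylation). With total counts only 54 ribosomal protein genes and 22 oxidative phosphorylation genes were called lower. Without WT replicate 2 a second oxidative phosphorylation gene was called higher. Mitochondrially encoded genes were called higher in 11 of 12 with a median of 1.75, which turned to -0.22 after GC correction, with 0 called higher and 2 lower. Against WT replicates 1 and 2 there were 4 higher calls, and with the puro cultures alone 6. The rise of the mitochondrial transcripts therefore depended on how base composition was treated, while the nuclear lists kept their direction.

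**Figure D3:**
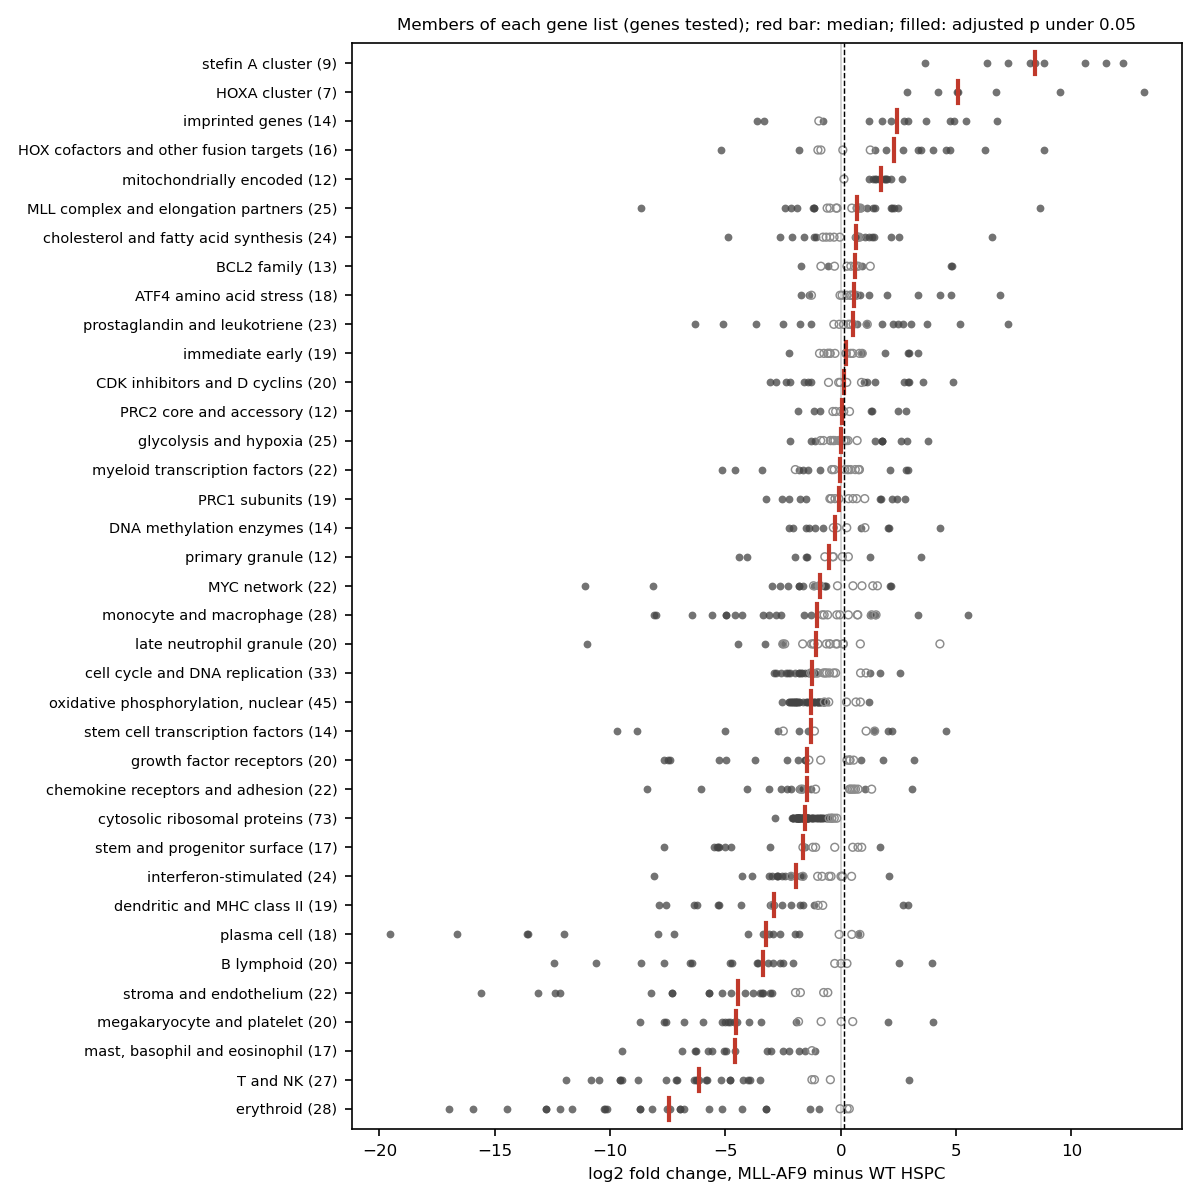
Log2 fold change (MLL-AF9 minus WT HSPCs) of each tested member of 37 gene lists, filled where called and open where not, with a bar at each list's median and a dashed line at the median of all genes tested (0.14). The HOXA and stefin A members lie wholly to the right of 0, and erythroid, T and NK, mast and stromal genes lie mostly to the left.

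**Figure D4:**
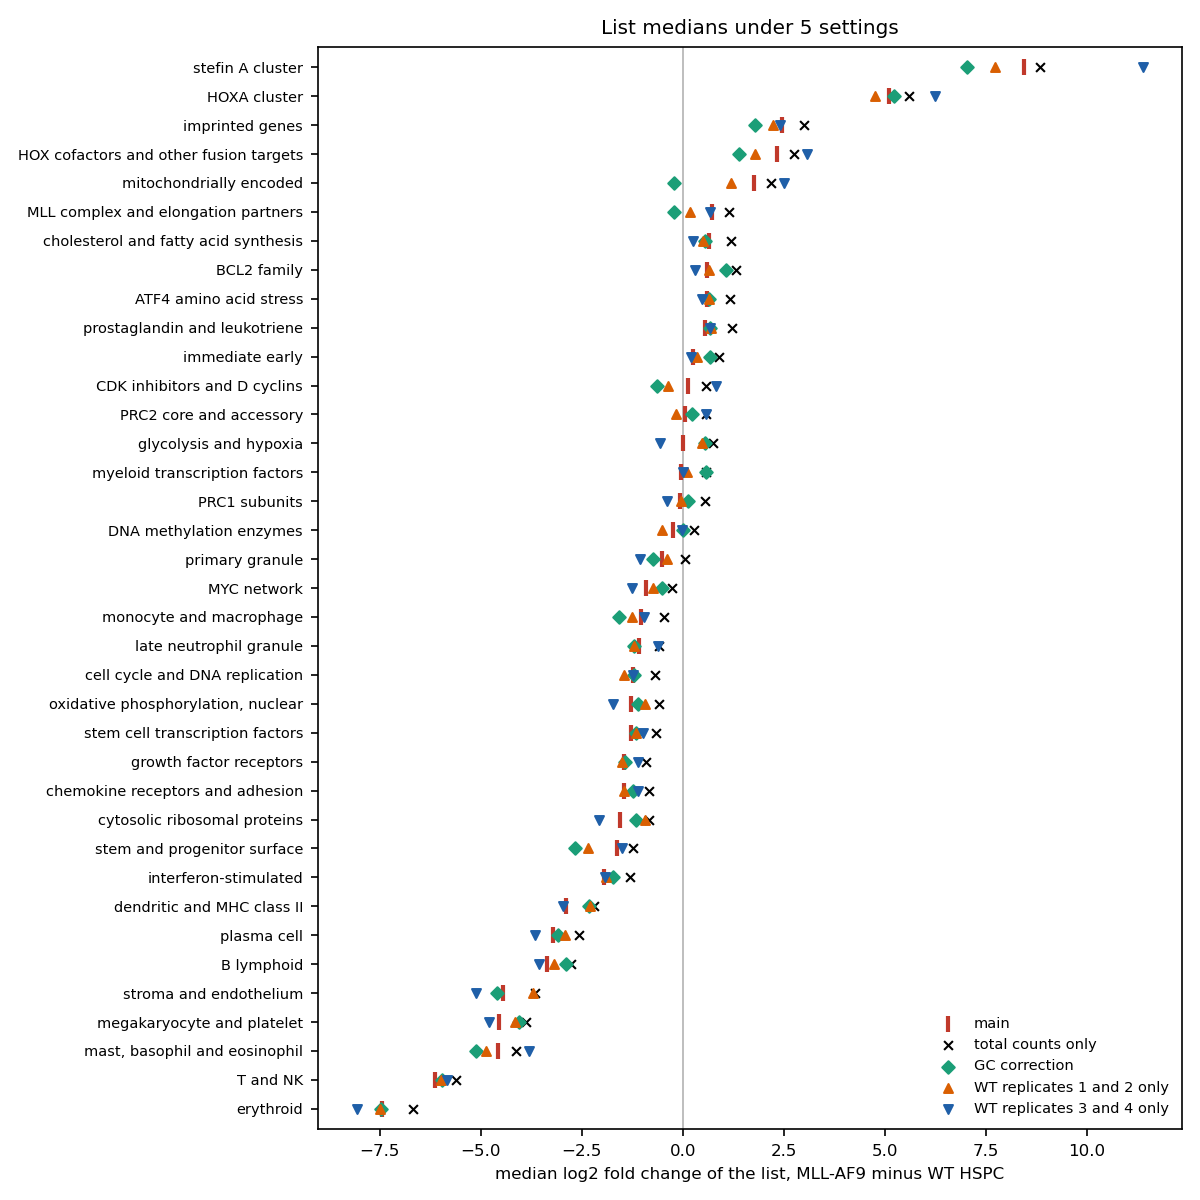
Median log2 fold change of 37 gene lists in the main fit, with total counts only, after GC correction and against either pair of WT libraries. Lists at the ends keep their sign under all 5 settings, while the MLL complex, CDK inhibitor and several other lists near 0 change sign. The mitochondrially encoded list, at 1.75 in the main fit, turns to -0.22 after GC correction.

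Metabolic and stress genes held some of the sharper single changes. Among 18 genes of the amino acid stress response governed by ATF4, 8 were called higher (44.4%) and 2 lower (11.1%). Of all genes tested, 32.8% were called higher and 29.4% lower. The alternative fits gave 6 to 10 higher and 0 to 3 lower, with 1 lower when any 1 of MLL-AF9 replicates 1, 2, 4 and 6 or WT replicates 3 and 4 was left out. Slc7a11, the cystine transporter, measured 5.99, 0.962, 1.11 and 1.55 CPM in WT HSPCs and 98.5 to 678 CPM in MLL-AF9 cells. Trib3, a pseudokinase that restrains ATF4, measured 0.775 to 1.29 CPM in WT HSPCs and 17.8 to 53.9 CPM in MLL-AF9 cells, and Aldh1l2, of mitochondrial folate metabolism, rose by 4.30. Among 25 glycolysis and hypoxia genes 7 were called higher (28%) and 3 lower (12%), both below the shares over all genes tested. The counts were 11 and 2 after GC correction and 14 and 2 with total counts only. Against WT replicates 3 and 4 there were 7 and 9, and 7 and 5 without MLL-AF9 replicate 2 or WT replicate 1. Vegfa, the vascular growth factor, went from 20.7, 14.5, 11.9 and 14.3 CPM to between 97.7 and 314 CPM, and the glucose transporter Slc2a1 rose by 1.78. Within glycolysis the enzymes split, with Pfkfb3, an activator of the pathway, higher by 1.78 and the phosphofructokinase Pfkm lower by 2.19. Of 24 genes of cholesterol and fatty acid synthesis 9 were called higher (37.5%) and 6 lower (25%), near the shares over all genes tested. These counts were among the least stable, with 4 higher without MLL-AF9 replicate 2 or 5 or WT replicate 4, 5 without WT replicate 3, 3 higher and 2 lower against WT replicates 1 and 2, and 13 and 2 with total counts only. Me1, the malic enzyme that supplies NADPH, measured 0.431 to 0.59 CPM in WT HSPCs and 4 to 126 CPM in MLL-AF9 cells. The desaturase Fads2 went from 56.7, 51.7, 130 and 132 CPM to between 0.239 and 9.26 CPM.

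Interferon-stimulated genes were lower in 13 of 24 and higher in 1, with 10 to 18 lower and 1 to 2 higher over the alternative fits. Oasl1 measured 12.8, 9.62, 20.5 and 22.1 CPM in WT HSPCs and at most 0.109 CPM in MLL-AF9 cells, and Irf9, of the interferon signalling complex, measured 63 to 93.5 CPM in WT HSPCs and 5.47 to 21.2 CPM in MLL-AF9 cells. Ifih1, an RNA sensor, was the member called higher, by 2.11. Among 19 immediate early genes 5 were called higher (26.3%, against 32.8% of all genes) and 1 lower (5.26%, against 29.4%). The counts were 8 and 1 with total counts only and 4 and 2 without MLL-AF9 replicate 1. Egr1 and Atf3 rose by 2.93 and 3.37, and the chaperone Dnajb1 fell by 2.25. Of 13 BCL2 family genes 3 were called higher (23.1%) and 2 lower (15.4%), both below the shares over all genes tested. After GC correction there were 7 and 1, and leaving out any 1 library other than MLL-AF9 replicates 3 and 5 left 1 lower call. Pmaip1 (Noxa), a death-promoting member, measured 2.16, 1.67, 2.03 and 1.88 CPM in WT HSPCs and 37.8 to 75 CPM in MLL-AF9 cells (fold change 4.80, SE 0.31, adjusted p = 5.58e-07).

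Enzymes of DNA methylation went in both directions, as did all genes tested. Of 14 tested, 4 were called higher (28.6%, against 32.8% of all genes) and 6 lower (42.9%, against 29.4%). The median of -0.24 became 0.27 under total-count scaling, where 5 were higher and 2 lower. After GC correction 4 were higher and 2 lower. Dnmt3b, a de novo methyltransferase, went from 24.6, 29.3, 38.2 and 32.2 CPM to between 3.79 and 14 CPM. Tet2, a demethylating enzyme mutated in leukemia, went from 73.4, 68.3, 12.6 and 17.5 CPM to between 145 and 202 CPM, so that its rise was 1.34 against WT replicates 1 and 2 and 3.50 against replicates 3 and 4. Dnmt3l, a cofactor normally confined to germ cells, went from at most 0.58 CPM to between 5.32 and 9.06 CPM.

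Prostaglandins are made from membrane arachidonic acid by cyclooxygenases and are cleared by Hpgd. Of 23 genes of prostaglandin and leukotriene metabolism 10 were called higher (43.5%, against 32.8% of all genes) and 6 lower (26.1%, against 29.4%). A phospholipase, both cyclooxygenases and some of the later synthases were among those called higher. Pla2g4a, which frees arachidonic acid, went from 17.4, 24.1, 4.06 and 5.67 CPM to between 125 and 191 CPM. The cyclooxygenase Ptgs1 went from 39.1, 27.6, 40.1 and 46.3 CPM to between 154 and 410 CPM, and Ptgs2 from at most 0.348 CPM to between 2.75 and 12 CPM. Of the enzymes that come after them, Tbxas1 (thromboxane) and Ptges (prostaglandin E) rose by 2.5 and 2.25, and Ptges2 fell by 2.51. Hpgd itself spanned 16.1 to 777 CPM in the cultures and 0.812 to 3.09 CPM in WT HSPCs. The lipoxygenases Alox12 and Alox15 went the other way and fell by 5.12 and 6.32.

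Imprinted genes were called higher in 10 of 14 and lower in 3, and against WT replicates 1 and 2 in 6 and 2. Airn, the noncoding RNA that silences Igf2r on the paternal allele, measured 4.15, 3.95, 5.31 and 5.1 CPM in WT HSPCs and 92.9 to 176 CPM in MLL-AF9 cells (fold change 4.90, SE 0.31, adjusted p = 5.31e-07). Airn and Igf2r overlap, and Igf2r also rose, by 1.81. Impact, an inhibitor of the amino acid stress kinase, measured 5.24 to 7.67 CPM in WT HSPCs and 35.3 to 52.5 CPM in MLL-AF9 cells. Igf2 fell from at most 0.775 CPM to at most 0.087 CPM, while Dlk1 rose from at most 0.185 CPM to between 0.244 and 5.34 CPM.

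The largest rises outside these lists, among genes of moderate or high level whose groups did not overlap, came from varied families. Lipg (endothelial lipase) measured 2.2, 0.228, 0.627 and 0.49 CPM in WT HSPCs and 205 to 395 CPM in MLL-AF9 cells. Snx24, a sorting nexin, went from at most 2.09 CPM to between 158 and 452 CPM. Igf2bp3, a fetal RNA-binding protein, measured 2.81, 3.12, 0.369 and 0.939 CPM in WT HSPCs and 237 to 306 CPM in MLL-AF9 cells, with little spread between the cultures. Creb5, Lpar1 (a lysophosphatidic acid receptor), Cgnl1, Tenm4 and Pmp22 rose by 6.39 to 7.15 on the log2 scale. Lpar1 was at 0.517 to 0.612 CPM in WT HSPCs and 40.9 to 99.9 CPM in the cultures. Tenm4 was the least even, from 7.01 to 729 CPM among the cultures. The stefin A genes BC100530 and Gm5483, and Aff2, Hoxa10, Slc7a11 and Hpgd complete the largest rises that are reported.

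The largest falls by the same rule were mostly genes of red cells and of other mature cells. Ank1 and Sptb, of the red cell membrane skeleton, fell by 8.20 and 5.71, and Car2 by 6.78. Ank1 measured 368, 268, 441 and 529 CPM in WT HSPCs and 0.752 to 1.74 CPM in MLL-AF9 cells. Ighm, the IgM heavy chain, measured 2784, 2024, 2686 and 1709 CPM in WT HSPCs and 4.33 to 28.9 CPM in MLL-AF9 cells. Prg2, the eosinophil major basic protein, fell by 6.87. Ces2g (a carboxylesterase) and Kcnn4 (a potassium channel) fell by 6.90 and 6.77, Ctse (cathepsin E) by 5.79 and the amino acid transporter Slc43a1 by 5.61. Crip1, Adgrg1 and Eng (endoglin), the last 2 being surface proteins of stem cells, fell by 5.43, 5.37 and 5.31.

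The 6 MLL-AF9 cultures were not alike. In a test of puro against neo cultures, which differ in vector and in drug and cannot be told apart from separate transductions, 0.679% of genes were called, 0.474% higher and 0.205% lower in puro. The count hung on single cultures. It was 0 without replicate 3 (edgeR, with 1532 genes at an unadjusted p under 0.05), 2 without replicate 2, and 874 without replicate 5. Replicates 4 and 6 were the closest pair of all (r = 0.9947 between log2 CPM over genes). A chi-square per gene set the gap between 2 libraries against counting error, which alone gives a median of 0.455. The median was 1.32 for replicates 4 and 6, and 17.9 to 119 for the other pairs of cultures. Whether replicates 4 and 6 are independent was not tested, and the main fit counts them as 2 samples. The puro against neo test gave 5 calls without replicate 4 and 4 without replicate 6. Replicate 5, the other puro culture, differed from replicates 4 and 6. Fn1, fibronectin, is the plainest case, with 2.8 to 5.16 CPM in replicates 1, 2, 3 and 5 and 1129 and 1004 CPM in replicates 4 and 6, against 769 to 2289 CPM in WT HSPCs. It did not pass the test against WT HSPCs, and it made up most of the stromal sum of those 2 cultures. With replicates 4 and 6 summed as 1 sample, the comparison with WT HSPCs gave 10127 calls. With the neo cultures alone 9229 genes were called, and with the puro cultures alone 9198.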

How the data were processed

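RNA of 6 MLL-AF9 cultures and 4 WT HSPC samples was analysed here, and the other samples of the series were used only in 1 alternative fit. Per the labels and the methods of the study, libraries were made with the KAPA RNA HyperPrep Kit with RiboErase and run on a NovaSeq, reads were aligned to GRCm38 with STAR (2.5.3e), and the authors deposited raw counts per gene from featureCounts (1.6.0) with the GENCODE M15 annotation. How strand and reads shared by several genes were handled is not given in the sources used here, so overlapping genes and near-copies are uncertain. A second deposited table holds the same samples beside 10 columns that belong to no sample of the series, and these columns were not used. Symbols and positions came from GENCODE M21 on the same build. Promoter windows came from RefSeq (GRCm38.p6).

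Genes reaching 10 counts in 4 or more of the 10 samples were tested with the quasi-likelihood F test of edgeR (4.0.16, R 4.3.3) with TMM factors and robust dispersion, two-sided, with Benjamini-Hochberg adjustment over 17077 genes and a threshold of 0.05. The SE was derived from the fold change and the F statistic. The test was run on simulated counts first. Alternatives used DESeq2 (1.42.0), other scalings and filters, subsets of samples, a GC correction (a spline with 5 degrees of freedom per sample) and a replicate block. The block added a term per replicate number, so its comparison with WT HSPCs rests on the replicate numbers present in both groups. The members, lists and tests were chosen with earlier results of these data known. Genes were named by rule: the 15 largest rises and falls by fold change of those called (average log2 CPM 3 or more, groups not overlapping), and up to 6 key genes per list. A few genes the rule picks are not reported here, and other key genes are only counted in their lists. The 91 other genes of the lists named in the text were chosen after their values were seen. Depth ranged from 35629341 to 45877994 counts, and floors cover counting error only.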

Additional observations from a re-analysis of the deposited data

Results flagged for a closer look

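Of 354 sets of replicates examined for a library far from the others, chance would flag about 1 in 20. The number flagged was 15, no more than that share, so single flags may be chance. MLL-AF9 replicate 5 was the outlying library most often. It was the highest culture for Mtf2 (126 CPM) and Itgal (173 CPM), and the lowest for Phc1 (2.42 CPM), Stfa2 (7.6 CPM), Stfa3 (1.81 CPM), Gm5483 (27.2 CPM), Pf4 (0.231 CPM), Pla2g4a (125 CPM), Alox12 (0.168 CPM) and Igf2r (134 CPM). MLL-AF9 replicate 3 stood high for Ebf1 (0.119 CPM) and low for Tet2 (145 CPM). WT replicate 1 was the lowest WT library for Pf4 (15.5 CPM) and Mcpt8 (156 CPM) and the highest for Ptges (6.41 CPM).

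Some named genes differed between puro and neo cultures in edgeR's test of that difference, which covers vector, drug and transduction together. On the log2 scale (puro minus neo) Eya1 was higher by 6.86, Crip1 by 3.40, Slc43a1 by 3.10, Adgrg1 by 2.60 and Pbx3 by 2.24. Fcnb differed by -2.83 and Me1 by -3.54. All 7 calls rest on a comparison that gave between 0 and 874 calls when a culture was left out.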

How the results depend on the processing

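The count of genes that differed between MLL-AF9 cells and WT HSPCs (10630) ran from 9135 to 10539 when a library was left out, with 4731 to 5526 called higher and 4404 to 5013 lower. It was 10754 with RLE factors, 11139 with DESeq2, 12155 of 28429 genes without a filter, 7465 against WT replicates 1 and 2, 11191 against replicates 3 and 4, and 9991 after GC correction. With total counts only it was 9875, of which 6747 were higher and 3128 lower, against 5603 and 5027 with TMM, so the split of directions follows the scaling. Replicate numbers did not pair the samples (correlations of deviations from -0.056 to 0.095). The replicate block gave 9300 calls, and 8756 with the GC correction, a fit chosen after seeing the data. Between puro and neo cultures (116 calls) it gave 175, and leaving out a culture gave 0 to 874. The cause of these shifts was not tested.

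Of 177 named genes, 161 kept their direction and side of the threshold in every fit, and 7 lost a call somewhere. Signs turned only for genes that were not called. Myb (0.09) was at -0.09 after GC correction, -0.19 with the block added, -0.45 against WT replicates 1 and 2, and between -0.14 (without WT replicate 3) and 0.38 (without WT replicate 2) as libraries were left out, with -0.01 without MLL-AF9 replicate 3 and -0.07 without WT replicate 4. Spi1 (-0.28) was at 0.50 after GC correction, 0.53 with the block added, 0.06 against WT replicates 1 and 2 and 0.40 with total counts. Ctsg (-0.35) was at 0.10, 0.19 and 0.34 in the GC, WT replicate 1 and 2 and total-count fits and 0.26 with puro cultures alone, where Olfm4 (4.30) was at -0.42. Top2a (-0.31) was at 1.13 against WT replicates 3 and 4, 0.02 with total counts, and between -0.64 (without WT replicate 3) and 0.09 (without WT replicate 2) as libraries were left out. Csf2ra (0.27) was at -0.02 against WT replicates 3 and 4 and -0.22 with the neo cultures alone. Depth limited genes near 3 counts per library.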
